A study of Mus musculus with 6 samples.

Results

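Fibroblast growth factor (FGF) receptors and their close partners were examined as 7 genes: the receptor kinases Fgfr1, Fgfr2, Fgfr3 and Fgfr4, the kinase-less receptor Fgfrl1, the secreted FGF carrier Fgfbp1 and the docking protein Frs2. They were taken by gene symbol from 37991 counted genes. The set was selected on the polyp and surrounding counts themselves, in which Fgfr2 had been seen to be lower in polyps, so differences of the members between the tissues are a description, without p-values. The libraries came from the ceca of 3 HBUS mice at 60 weeks. Each mouse gave 1 serrated polyp, a lesion with saw-toothed crypts, and 1 sample of the normal distal cecum around it. In HBUS animals the intestinal epithelium expresses transgenes for HB-EGF, a ligand of the EGF receptor, and for US28, a chemokine receptor of a herpesvirus. Polyp and surrounding tissue share this genotype, and no library of a mouse without the transgenes was analysed here. The labels give no promoter for the transgenes, and each sample is whole tissue from 1 animal.

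FGF receptors are single-pass tyrosine kinases that bind an FGF together with heparan sulfate, pair up, and phosphorylate Frs2, from which the RAS and ERK cascade and the PI3K pathway start. The third immunoglobulin-like domain of Fgfr1, Fgfr2 and Fgfr3 is finished by 1 of a pair of alternative exons. In Fgfr2 the IIIb exon is used in epithelium and gives a receptor for ligands that include Fgf7, Fgf10 and Fgf22. Of these, Fgf7 and Fgf10 are made by the mesenchyme beneath. In the mouse embryo, Fgf10 acting on epithelial Fgfr2 is needed for the cecum to form.

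The deposited counts sum all forms of a gene, so the splice forms of Fgfr2 were not told apart.

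The windows of 250 bases before the annotated start are shown for Fgfr2 and Fgfbp1, the members that were lower in every polyp, and for Frs2, which was measured at like levels in both tissues. They come from RefSeq (GRCm38.p6), which had a promoter entry for 6 of the 7 members. Fgfr2 lies at chr7:130266809-130267058, Fgfbp1 at chr5:43981800-43982049 and Frs2 at chr10:117148475-117148724, all on the minus strand. Capitals mark matches to a GC box (GGGCGG) or an ETS core (CCGGAAG) on either strand.
Fgfr2 promoter: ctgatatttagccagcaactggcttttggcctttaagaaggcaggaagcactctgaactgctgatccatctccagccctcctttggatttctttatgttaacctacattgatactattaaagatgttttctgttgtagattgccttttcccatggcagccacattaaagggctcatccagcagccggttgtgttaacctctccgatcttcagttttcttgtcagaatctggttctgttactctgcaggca
Fgfbp1 promoter: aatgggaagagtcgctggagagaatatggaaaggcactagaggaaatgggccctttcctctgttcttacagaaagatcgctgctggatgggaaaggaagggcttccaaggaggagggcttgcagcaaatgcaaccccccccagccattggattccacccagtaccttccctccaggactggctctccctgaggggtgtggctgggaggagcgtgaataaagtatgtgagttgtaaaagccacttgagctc
Frs2 promoter: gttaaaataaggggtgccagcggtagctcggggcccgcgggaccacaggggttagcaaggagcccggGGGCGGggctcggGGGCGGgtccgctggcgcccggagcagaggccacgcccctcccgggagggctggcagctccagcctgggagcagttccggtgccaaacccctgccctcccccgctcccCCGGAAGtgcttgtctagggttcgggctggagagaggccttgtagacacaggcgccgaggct

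The Fgfr2 and Fgfbp1 windows held 2 and 3 CpG dinucleotides, against 19 in that of Frs2 and a median of 6 over 32536 mouse windows. Neither held a match to the GC box or the ETS core, nor to the TATA box (TATAAA), the AP-1 site (TGANTCA), the TEAD core (GGAATG), the HNF4 motif (CAAAGTCCA) or the GATA core (AGATAA). The GC box occurred in 33.0% and the ETS core in 6.95% of all windows. The TATA box occurred in 12.3%, the AP-1 site in 6.73%, the TEAD core in 12.6%, the HNF4 motif in 0.387% and the GATA core in 9.97%. The windows of Fgfr3, Fgfr4 and Fgfrl1 held GC boxes, as did that of Frs2. They held 19 and 24 CpG dinucleotides for the starts of Fgfr3, 15 for Fgfr4 and 30 for Fgfrl1. No link between CpG counts and the differences of the members was tested. For Fgfr2 the RefSeq start lies 545 bases upstream of the outermost start in GENCODE M21, leaving aside 1 of 27 transcript models that starts far upstream, so the window may miss a start used in the cecum.

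Library totals ran from 6632645 to 13350119 counts, of which the mitochondrial rRNAs took 46.3% to 75.3%. The polyp library of mouse 1192 stood apart. Of 3780 protein-coding genes that averaged 10 to 50 counts in the other libraries, 12.7% had no count in it, against 1.11% to 3.34% for the same measure in each of the other libraries. Levels are in CPM, counts scaled to a fixed library total after TMM normalization for library composition, and are given as mean ± SD (n = 3 mice). Log2 differences are polyp over surrounding tissue (n = 3 pairs) ± the standard error from edgeR's paired quasi-likelihood fit. All 7 members passed the filter on low counts.

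Fgfr2 was lower in the polyp of every mouse. Fgfr2 (ENSMUSG00000030849) had 27.9, 22.0 and 17.5 CPM in the polyps of mice 1119, 1192 and 1199, against 84.2, 97.4 and 69.4 CPM in their surrounding tissue. The highest polyp lay far below the lowest surrounding sample. The means were 22.5 ± 5.24 CPM in polyps and 83.7 ± 14.0 CPM in surrounding tissue, a log2 difference of -1.91 ± 0.18, or 3.75-fold lower. Mouse by mouse the log2 difference was -1.58, -2.14 and -1.98. These values rest on 231, 267 and 123 counts in polyps and 889, 1368 and 308 counts in surrounding tissue. The samples are whole tissue, so fewer cells that carry a transcript and less of it per cell cannot be told apart.

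Fgfbp1 was the other member lower in each polyp. Its protein is a secreted chaperone that frees FGFs held in the matrix and hands them to receptors. Fgfbp1 (ENSMUSG00000048373) had 9.55, 15.5 and 5.55 CPM in the polyps of mice 1119, 1192 and 1199, against 27.3, 34.7 and 24.1 CPM in surrounding tissue. The groups did not overlap, and the means were 10.2 ± 5.03 CPM in polyps and 28.7 ± 5.42 CPM in surrounding tissue. The log2 difference was -1.56 ± 0.26, or 2.95-fold lower. Across the 6 libraries Fgfbp1 followed Fgfr2 with a Pearson correlation of log2 CPM of 0.914, a description of 6 points that split by tissue. Of 5626 genes of at least moderate level that were compared, 88 had a higher correlation with Fgfr2 than this.

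Of the 7 members, 2 were called lower and 0 higher (edgeR quasi-likelihood test, Benjamini-Hochberg adjusted p under 0.05 over 10960 genes), beside 1.04% of all tested genes called lower, 1.72% called higher and 2.76% called either way. In 2 members all polyps lay below all surrounding samples and in 1 all lay above, which 8.58% and 9.84% of all tested genes did. Since this contrast chose the members, nothing is read from these counts.

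**Figure D1:**
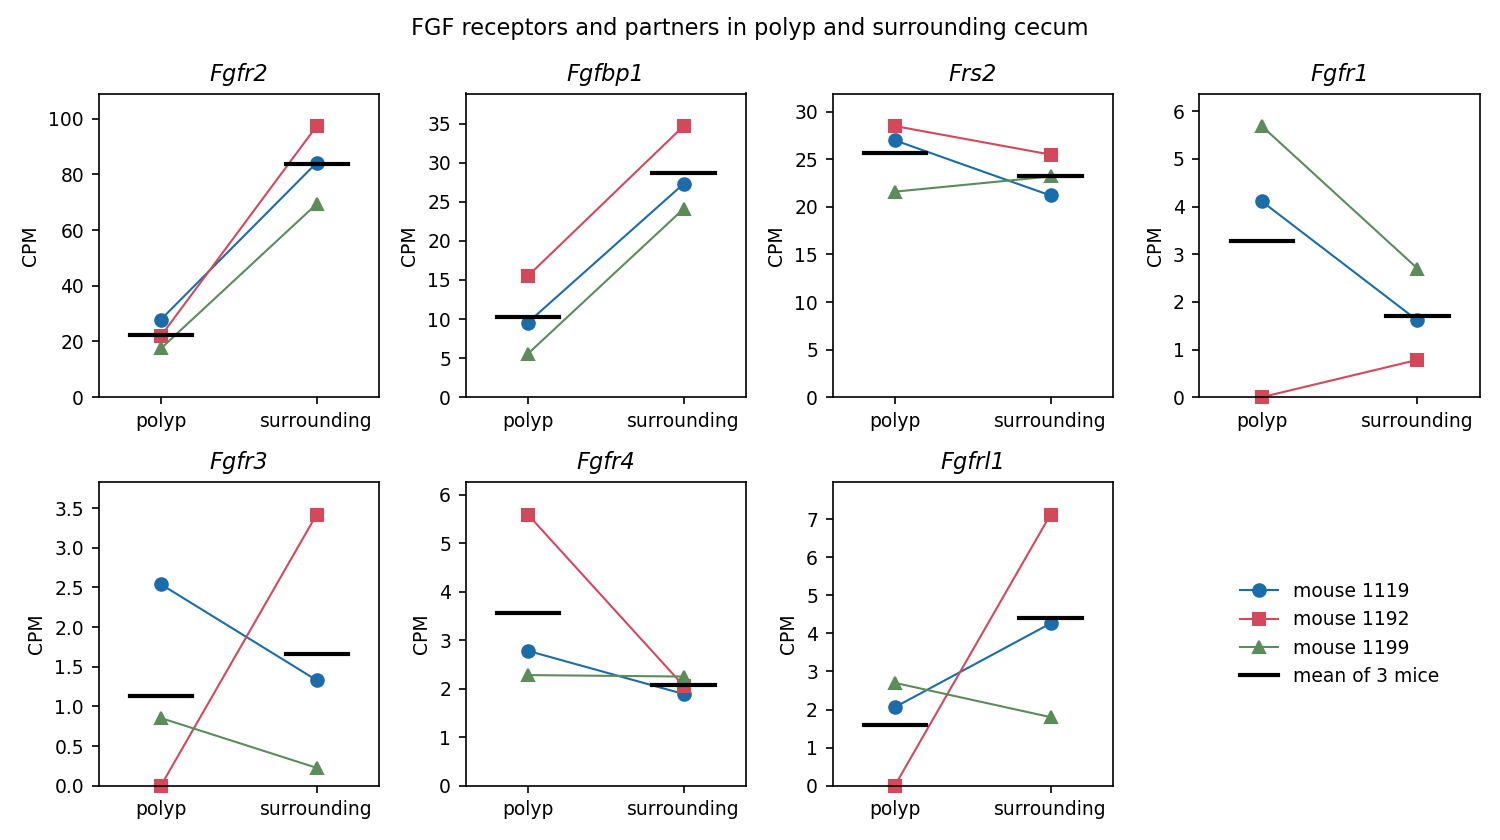
CPM of each member in polyp (left) and surrounding tissue (right), with 1 line per mouse and a black bar at the mean of 3 mice; every axis starts at 0. Fgfr2 (means 22.5 and 83.7 CPM) and Fgfbp1 (10.2 and 28.7 CPM) were lower in all 3 polyps, while the polyp of mouse 1192 sits at 0 for Fgfr1, Fgfr3 and Fgfrl1.

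Frs2, the membrane-anchored docking protein that links the receptors to GRB2 and SHP2, was measured at nearly the same level in both tissues. Frs2 (ENSMUSG00000020170) had 27.0, 28.5 and 21.6 CPM in the polyps of mice 1119, 1192 and 1199, against 21.2, 25.5 and 23.2 CPM in surrounding tissue. The ranges overlapped, and the log2 difference was 0.14 ± 0.20. Its counts, 152 to 346 in polyps and 103 to 358 in surrounding tissue, were of the order of those of Fgfr2 in polyps.

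Fgfr4 (ENSMUSG00000005320), which in the mouse liver is the receptor for the gut hormone Fgf15 together with beta-Klotho, had 2.78, 5.59 and 2.28 CPM in the polyps of mice 1119, 1192 and 1199, against 1.89, 2.06 and 2.25 CPM in surrounding tissue. The highest value was the polyp of mouse 1192, and the lowest polyp and the highest surrounding sample were almost level. The log2 difference was 0.70 ± 0.63, and 0.26 ± 0.68 without mouse 1192.

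Fgfr1 (ENSMUSG00000031565), the FGF receptor typical of mesenchyme, was counted in low numbers. Fgfr1 had 34, 0 and 40 counts in the polyps of mice 1119, 1192 and 1199, against 17, 11 and 12 counts in surrounding tissue. In CPM these were 4.11, 0 and 5.69 in polyps and 1.61, 0.783 and 2.70 in surrounding tissue, so the polyps of mice 1119 and 1199 were the highest and that of mouse 1192 the lowest of the 6 libraries. The log2 difference was 0.12 ± 1.32, and 1.17 ± 0.54 without mouse 1192.

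Fgfr3 (ENSMUSG00000054252), a receptor kinase expressed in crypts of the young mouse intestine, was near the limit of detection. Fgfr3 had 21, 0 and 6 counts in the polyps of mice 1119, 1192 and 1199, against 14, 48 and 1 counts in surrounding tissue. No order of the tissues held across mice, and the log2 difference was -0.57 ± 1.79, turning to 1.16 ± 1.00 without mouse 1192. Fgfrl1 (ENSMUSG00000008090), a receptor that binds FGFs and heparan sulfate but has no kinase domain, had 17, 0 and 19 counts in those polyps, against 45, 100 and 8 counts in surrounding tissue. Its log2 difference was -1.77 ± 1.36, and -0.36 ± 0.66 without mouse 1192. Fgfr1, Fgfr3 and Fgfrl1 thus each had 0 counts in the polyp of mouse 1192, which allows up to 0.247 CPM there (3 counts, counting error only). That this library lacked counts for 12.7% of genes of like abundance moves with these zeros, and its part in them was not tested.

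Between genes, levels were compared per kilobase of merged exons. The RNA had been passed through a kit that removes mammalian RNA. Whether it took all transcripts alike was not tested, so the order is that of the counts that remained. In polyps the order was Fgfbp1 (4.51 ± 2.22 CPM per kilobase), Frs2 (2.94 ± 0.411), Fgfr2 (2.17 ± 0.507), Fgfr4 (1.00 ± 0.505), Fgfrl1 (0.570 ± 0.507), Fgfr1 (0.331 ± 0.297) and Fgfr3 (0.158 ± 0.180). In surrounding tissue it was Fgfbp1 (12.7 ± 2.39 CPM per kilobase), Fgfr2 (8.10 ± 1.36), Frs2 (2.66 ± 0.244), Fgfrl1 (1.58 ± 0.956), Fgfr4 (0.585 ± 0.0508), Fgfr3 (0.231 ± 0.227) and Fgfr1 (0.172 ± 0.0976). In polyps, neighbours in this order overlapped in their ranges over mice, except Fgfr2, which stayed above Fgfr4. In surrounding tissue Frs2 and Fgfrl1 overlapped, as did Fgfr3 and Fgfr1, while the other neighbours did not. The first place of Fgfbp1 depended on the length used. Scaled by mean transcript length, Fgfbp1 had 6.69 ± 3.30 CPM per kilobase in polyps, below Fgfr2 (10.5 ± 2.44) and Frs2 (10.5 ± 1.48), and 18.8 ± 3.55 in surrounding tissue, below Fgfr2 (38.9 ± 6.51). Scaled by longest coding length, Frs2 (16.8 ± 2.36 CPM per kilobase) came before Fgfbp1 (13.6 ± 6.68) in polyps, while Fgfbp1 stayed first in surrounding tissue (38.1 ± 7.20). The merged length of Fgfr2, 10328 bases, includes exons of the transcript model that starts far upstream, which shares 314 exon bases with Ctbp2.

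Among the 4 receptor kinases, Fgfr2 held most of the length-scaled level in each library, and less of it in polyps. Fgfr2 was chosen for its lower level in polyps, so its lower share there is a description and no separate result. As with the order of levels, the shares are those of the counts left after removal of mammalian RNA. Fgfr2 made up 63.5%, 57.4% and 55.9% of the summed level in the polyps of mice 1119, 1192 and 1199, against 90.2%, 89.2% and 87.7% in surrounding tissue. Fgfr4 took 18.4%, 42.6% and 21.2% in polyps and 5.92%, 5.51% and 8.30% in surrounding tissue. The 42.6% was in the polyp of mouse 1192, where Fgfr1 and Fgfr3 had 0 counts. Scaled by longest coding length, the mean share of Fgfr2 was 73.0 ± 6.53% in polyps and 93.7 ± 0.764% in surrounding tissue. That of Fgfr4 was then 12.6 ± 7.38% in polyps and 2.5 ± 0.587% in surrounding tissue. As plain counts, Fgfr2 was 231 of 309 receptor counts in the polyp of mouse 1119 (74.8%, 95% Wilson interval for counting error only 69.6% to 79.3%), against 889 of 940 in its surrounding tissue (94.6%, 92.9% to 95.8%). For mouse 1192 it was 79.7% (75.1% to 83.7%) in the polyp and 94.0% (92.6% to 95.1%) in surrounding tissue. For mouse 1199 it was 66.5% (59.4% to 72.9%) in the polyp and 93.1% (89.8% to 95.3%) in surrounding tissue. These intervals leave out the spread between mice and test nothing. The other 3 kinases together had 7.95 ± 2.06 CPM in polyps and 5.43 ± 0.748 CPM in surrounding tissue, and all 4 together 30.4 ± 6.05 CPM in polyps and 89.1 ± 14.5 CPM in surrounding tissue.

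**Figure D2:**
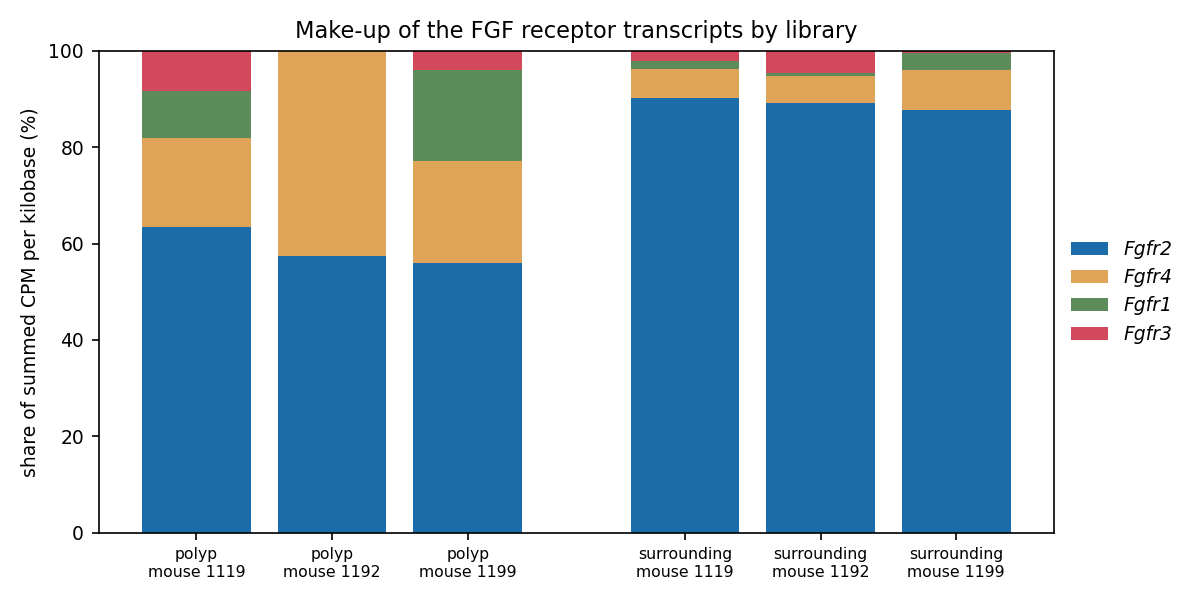
Share of each receptor kinase in the summed CPM per kilobase of Fgfr1 to Fgfr4, with 1 stacked bar per library, polyps left and surrounding tissue right. Fgfr2 takes 55.9% to 63.5% in polyps and 87.7% to 90.2% in surrounding tissue.

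Of 16 general epithelial markers 3 rose in polyps by edgeR (Krt18, Krt19 and Krt8) and 0 fell. Of the 16 log2 differences 13 were positive and 3 negative, with a median of 0.24. The negative ones were Cdx1 (-0.59, adjusted p = 0.158 in edgeR), Cdx2 (-0.29) and Cdhr5 (-0.2), and none of them passed. DESeq2 and limma-voom each called 4 higher and 0 lower, while edgeR called 1 higher with any of the 3 mice left out and 0 when the pairing was dropped. Their summed level was 7640 to 9740 CPM in polyps and 4970 to 8000 CPM in surrounding tissue. Epcam, the epithelial adhesion molecule, had 555, 378 and 664 CPM in the polyps of mice 1119, 1192 and 1199, against 352, 277 and 615 CPM in surrounding tissue (adjusted p = 0.251 in edgeR). The junction protein Cdh1 had 947 ± 60.6 CPM in polyps and 618 ± 142 CPM in surrounding tissue, and the brush border protein Vil1 468 ± 63.1 CPM in polyps and 412 ± 126 CPM in surrounding tissue, and neither passed. Set against the 16 markers in the same library, which needs no scaling between libraries, Fgfr2 had 3.65, 2.87 and 1.80 counts per 1000 marker counts in polyps and 14.7, 19.6 and 8.67 in surrounding tissue. Fgfbp1 had 1.25, 2.03 and 0.569 per 1000 in polyps and 4.77, 6.98 and 3.01 in surrounding tissue. Both ratios were lower in all polyps than in any surrounding sample. The members were chosen on this contrast, and the divisor holds Krt8, Krt18 and Krt19, which were called higher in polyps. These ratios are therefore a description and no separate result. For Frs2 the ratio was 3.52, 3.72 and 2.22 in polyps and 3.71, 5.13 and 2.90 in surrounding tissue, and the tissues overlapped. Within each mouse the Frs2 ratio was also lower in the polyp. Surrounding over polyp, it was 1.05, 1.38 and 1.31 for Frs2 and 4.03, 6.83 and 4.83 for Fgfr2.

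**Figure D3:**
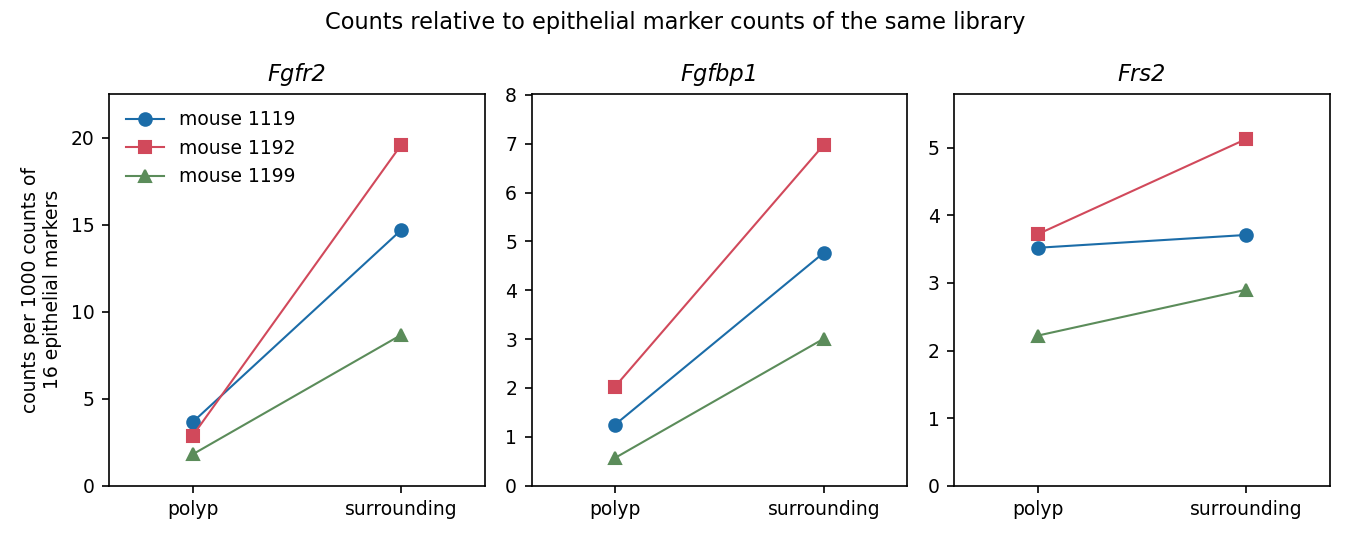
Counts of Fgfr2, Fgfbp1 and Frs2 per 1000 counts of 16 epithelial markers in the same library, polyp left and surrounding tissue right, 1 line per mouse. Fgfr2 averages 2.77 in polyps and 14.3 in surrounding tissue, and Frs2 3.16 and 3.91.

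Markers of other cell types also differed between the tissues. Of 10 fibroblast markers 4 rose (Col1a1, Col1a2, Col3a1 and Pdgfra) and 0 fell. Their log2 differences were positive in 9 and negative in 1, with a median of 1.26. Lum (0.03) and Thy1 (0.02) were level, and Dpt was the negative one (-0.93). The list summed to 231 to 563 CPM in polyps and 79.2 to 160 CPM in surrounding tissue. The collagen genes Col1a1, Col1a2 and Col3a1 made up most of the sum in polyps. Col1a2, a chain of collagen I, had 71.2 ± 31.2 CPM in polyps and 16.2 ± 5.36 CPM in surrounding tissue (adjusted p = 0.00304 in edgeR). Of 8 tested smooth muscle markers 0 rose and 2 fell, Tagln and Synpo2, while the muscle actin Actg2, at 1.38 ± 1.89 CPM in polyps and 13.6 ± 3.61 CPM in surrounding tissue, did not pass. The summed smooth muscle level was 17.2 to 80.3 CPM in polyps and 190 to 218 CPM in surrounding tissue. None of the 6 tested endothelial markers (3 at an unadjusted p under 0.05) and none of the 7 tested leukocyte markers (2 at an unadjusted p under 0.05) passed edgeR's test, and DESeq2 and limma-voom called 0 of either list. The log2 differences of the 6 endothelial markers were all positive, from 0.32 for Pecam1 to 2.71 for Tie1, with a median of 1.29. Their list summed to 16.6 to 48.5 CPM in polyps and 10.3 to 20.1 CPM in surrounding tissue. Of the 7 leukocyte markers 5 had a positive and 2 a negative log2 difference, with a median of 0.13, and their list summed to 44.6 to 69.5 CPM in polyps and 34.3 to 63.8 CPM in surrounding tissue. Ptprc, a marker of all leukocytes, had 11.2 ± 6.59 CPM in polyps and 14.0 ± 4.45 CPM in surrounding tissue. The myeloid markers Lyz2 (17.3 ± 1.31 CPM in polyps and 9.55 ± 4.03 CPM in surrounding tissue) and Cd14 (18.5 ± 4.35 CPM in polyps and 10.7 ± 3.23 CPM in surrounding tissue) did not overlap between the tissues. Neither passed (adjusted p = 0.158 and 0.151 in edgeR), and 9.84% of all tested genes had all polyps above all surrounding samples. The myeloid markers Csf1r, Itgam and Itgax overlapped, with log2 differences of 0.13, 0.14 and 0.01, and Cd68 was too low to test. The 8 enteric neuron and glia markers summed to 0.247 to 1.71 CPM in polyps and 2.25 to 3.99 CPM in surrounding tissue, with Sox10 at 0 in all libraries. The 7 squamous markers summed to 3.84 to 4.52 CPM in polyps and 1.14 to 2.93 CPM in surrounding tissue, with Krt5 at 0 in all libraries. Most of the polyp sum was Krt14, at 2.56 ± 0.0961 CPM in polyps and 0.356 ± 0.473 CPM in surrounding tissue (adjusted p = 0.212 in edgeR). The other 6 were too low to test. Among them Krt13, Krt15 and Dsg3 had lower means in polyps, and Trp63 and Ivl higher means. The part of these shifts in the levels of the members was not tested.

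By rule, the genes whose log2 CPM followed Fgfr2 most closely over the 6 libraries were Sema6a, Slc26a2, Spop, Lrp12 and Zfp871, with Pearson correlations of 0.982 to 0.996. Sema6a, a transmembrane semaphorin, had 34.5, 28.7 and 26.6 CPM in the polyps of mice 1119, 1192 and 1199, against 69.1, 68.0 and 59.1 CPM in surrounding tissue. Slc26a2, a sulfate transporter, had 369, 347 and 285 CPM in polyps, against 711, 697 and 556 CPM in surrounding tissue. Their log2 differences, -1.13 ± 0.16 and -0.97 ± 0.13, were smaller in size than that of Fgfr2. The 6 points share 3 mice and fall into 2 tissues, and the values of these genes follow the same split.

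Ligands were scarce in these libraries. Of 15 paracrine FGF genes 3 passed the filter on low counts, and none was called by edgeR, by DESeq2 or by limma-voom (1 at an unadjusted p under 0.05 in edgeR). Fgf7, a mesenchymal ligand of the IIIb form of Fgfr2, had 3.02, 3.45 and 3.84 CPM in the polyps of mice 1119, 1192 and 1199, against 0.663, 1.50 and 0.676 CPM in surrounding tissue. The polyps all lay above the surrounding samples, but the log2 difference of 1.89 ± 0.76 did not pass (adjusted p = 0.289 in edgeR). Fgf1, which binds all the receptors, had 2.18, 0 and 2.56 CPM in polyps and 2.94, 7.40 and 3.38 CPM in surrounding tissue (adjusted p = 0.593 in edgeR). Its polyps all lay below the surrounding samples, with a log2 difference of -1.83 ± 1.29 and the 0 in the polyp of mouse 1192. Of all tested genes, 8.58% had all polyps below and 9.84% all polyps above all surrounding samples. Fgf9 had 1.11 ± 0.678 CPM in polyps and 1.58 ± 0.867 CPM in surrounding tissue (adjusted p = 0.872 in edgeR). Fgf10 had 7, 1 and 6 counts in polyps and 4, 8 and 5 counts in surrounding tissue, too few to test. Fgf22, Fgf20 and the hormone-like Fgf15, Fgf21 and Fgf23 had 0 counts in every library.

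Co-receptors and surface partners were likewise level or sparse. Of 9 such genes 2 were tested, and none was called by edgeR (0 at an unadjusted p under 0.05), DESeq2 or limma-voom. Flrt3, a transmembrane protein that binds FGF receptors, had 15.2 ± 1.67 CPM in polyps and 13.4 ± 1.82 CPM in surrounding tissue (adjusted p = 0.816 in edgeR). Ncam1, a neural adhesion molecule that binds FGF receptors, had 1.37 ± 0.763 CPM in polyps and 1.32 ± 0.403 CPM in surrounding tissue. Klb, encoding beta-Klotho, had 0 to 5 counts in polyps and 2 to 6 counts in surrounding tissue.

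Of 19 tested heparan sulfate genes 1 rose and 0 fell, with a median log2 difference of 0.11, beside -0.02 over all tested genes. Hs3st1, which adds 3-O-sulfate to heparan sulfate chains, had 6.53, 11.5 and 7.54 CPM in the polyps of mice 1119, 1192 and 1199, against 1.99, 1.64 and 2.25 CPM in surrounding tissue. It rose 4.31-fold (adjusted p = 0.0474 in edgeR) and was not called when any 1 mouse was left out, with upper-quartile normalization or without robust spread estimates. Sdc1, an epithelial heparan sulfate proteoglycan, had 126 ± 13.0 CPM in polyps and 84.4 ± 13.8 CPM in surrounding tissue (adjusted p = 0.108 in edgeR).

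Genes acting inside the cell did not pass, apart from Egr1. Of 22 tested docking and cascade genes none was called by edgeR (4 at an unadjusted p under 0.05), DESeq2 or limma-voom, and their median log2 difference was 0.09. Plcg1, the phospholipase C that binds the receptor tail, came closest, with 18.0 ± 3.87 CPM in polyps and 8.75 ± 4.18 CPM in surrounding tissue (adjusted p = 0.0880 in edgeR). The adaptor Crk had 152 ± 7.12 CPM in polyps and 114 ± 14.9 CPM in surrounding tissue, and the kinase Akt1 44.7 ± 4.93 CPM in polyps and 32.2 ± 1.80 CPM in surrounding tissue. Of 10 tested feedback inhibitors none was called by edgeR (3 at an unadjusted p under 0.05), DESeq2 or limma-voom. Dusp6, the ERK phosphatase often used as a readout of FGF signalling, had 56.6, 58.1 and 84.2 CPM in polyps and 33.9, 31.5 and 68.5 CPM in surrounding tissue (adjusted p = 0.107 in edgeR). Spry2, an inhibitor of receptor kinase signalling, had 15.0 ± 4.49 CPM in polyps and 8.53 ± 1.01 CPM in surrounding tissue (adjusted p = 0.277 in edgeR). Cbl, the ubiquitin ligase that marks receptors for breakdown, had 36.2 ± 3.56 CPM in polyps and 51.8 ± 11.8 CPM in surrounding tissue (adjusted p = 0.204 in edgeR). Of 5 tested target transcription factors 1 rose, the immediate early gene Egr1, with 20.1, 29.3 and 27.6 CPM in polyps and 6.54, 4.56 and 15.8 CPM in surrounding tissue (adjusted p = 0.0450 in edgeR). Egr1 was not called when any 1 mouse was left out, under upper-quartile normalization, when spread was not estimated robustly, or when the pairing was dropped. These genes answer to other receptor kinases as well as to FGF receptors.

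Of the splice regulators that choose the epithelial exon of Fgfr2, Esrp1 and Esrp2 were at like levels in both tissues. Esrp1, the epithelial splicing factor that favours the IIIb exon, had 142, 135 and 156 CPM in the polyps of mice 1119, 1192 and 1199, against 170, 156 and 155 CPM in surrounding tissue. Its log2 difference was -0.15 ± 0.14 (adjusted p = 0.680 in edgeR). Its partner Esrp2 had 22.3 ± 1.81 CPM in polyps and 23.1 ± 3.16 CPM in surrounding tissue. Of 8 tested regulators none was called by edgeR (0 at an unadjusted p under 0.05), DESeq2 or limma-voom. The smallest p among them was that of Tia1, an RNA-binding protein, with 17.4 ± 3.59 CPM in polyps and 23.7 ± 3.15 CPM in surrounding tissue (adjusted p = 0.393 in edgeR). Ptbp1 had 51.4 ± 7.54 CPM in polyps and 42.7 ± 1.62 CPM in surrounding tissue, and Hnrnph1 56.1 ± 9.47 CPM in polyps and 64.3 ± 7.26 CPM in surrounding tissue. For Ptbp1 all polyps lay above all surrounding samples, as in 9.84% of all tested genes (adjusted p = 0.549 in edgeR).

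**Figure D4:**
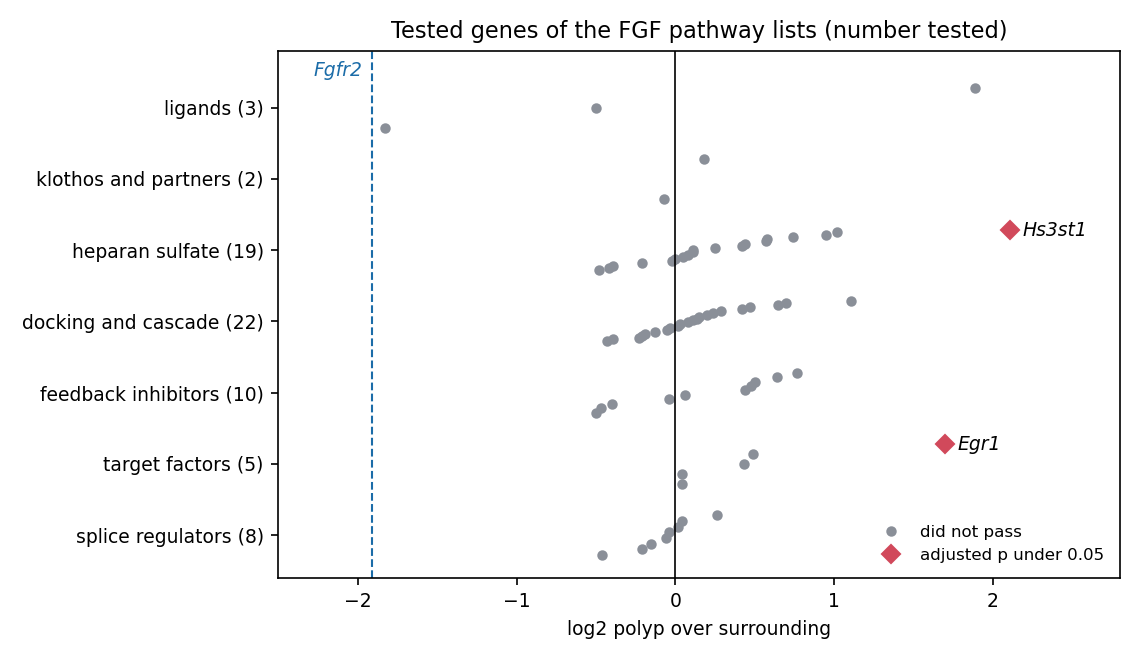
Log2 polyp over surrounding of each tested gene in 7 FGF pathway lists, with 1 point per gene spread vertically within its list and the number tested beside each name; diamonds mark genes past an adjusted p of 0.05. Hs3st1 and Egr1 passed, and the dashed line is Fgfr2 at -1.91.

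Other receptor tyrosine kinases give a frame for the receptors. Of 24 tested, 3 rose and 0 fell, and the median log2 difference was 0.39, beside -0.02 over all tested genes. Egfr, the receptor for HB-EGF, had 222, 157 and 223 CPM in the polyps of mice 1119, 1192 and 1199, against 74.9, 64.0 and 136 CPM in surrounding tissue (adjusted p = 0.0153 in edgeR). Pdgfra, a fibroblast receptor, had 35.3 ± 3.65 CPM in polyps and 12.5 ± 5.90 CPM in surrounding tissue (adjusted p = 0.0194 in edgeR). Ret, the receptor kinase for GDNF family ligands, had 18.7 ± 2.22 CPM in polyps and 3.52 ± 2.04 CPM in surrounding tissue (adjusted p = 0.0242 in edgeR). These calls were each lost without mouse 1119, and that of Egfr also without the pairing. Those of Pdgfra and Ret were lost without mouse 1199. The log2 differences of the 24 ran from -0.63 to 2.71, and that of Fgfr2, at -1.91, lay below this range. The list leaves out the Eph receptors, so the range is that of the listed kinases only. Fgfr2 was chosen for its difference, so its place in this order is a description.

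**Figure D5:**
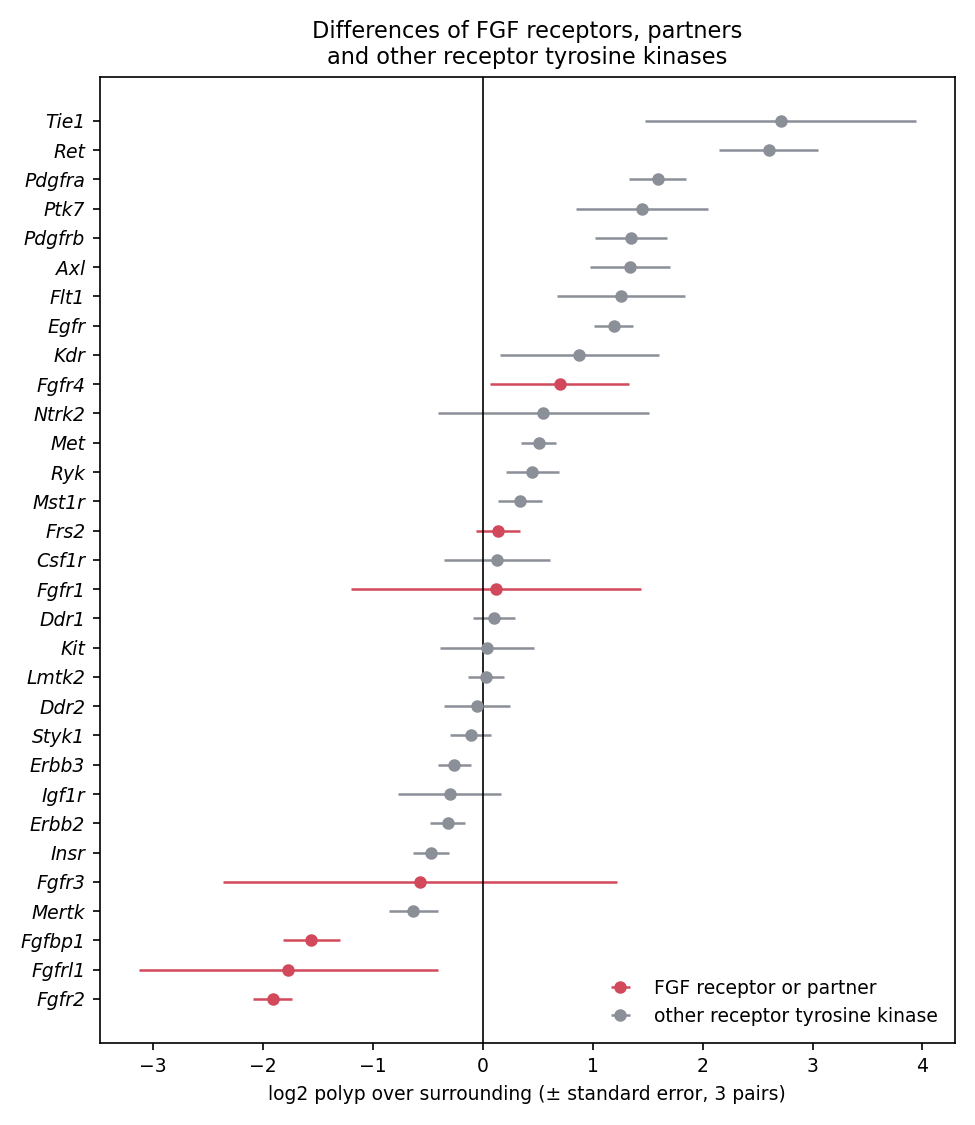
Log2 polyp over surrounding with its standard error for the 7 members (red) and 24 other receptor tyrosine kinases (grey), ordered by value. Fgfr2 is at -1.91 ± 0.18 and Fgfbp1 at -1.56 ± 0.26, while Fgfr1, Fgfr3 and Fgfrl1 have standard errors above 1.3.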

How the data were processed

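RNA of 6 libraries, a polyp and surrounding cecum from each of 3 mice, was sequenced. Per the labels' protocols, RNA was passed through a kit that removes mammalian RNA and through bacterial rRNA depletion before paired-end libraries were made, so the counts may cover what mouse RNA remained. The authors deposited raw counts per gene without normalization, per the file headers. The submitters' processing notes list the tools HTSeq 0.5.3p9, TopHat2 2.0.7 and Bowtie 0.12.9. For the genome build, annotation and strand setting: not given in the sources used here. Exons of Fgfr1 overlap the antisense gene Gm16159 over 164 bases, and that gene had 0 counts. Exons of Fgfr3 overlap G630022F23Rik, on the opposite strand, over 998 bases, and that gene was not among those counted. Its part in the low counts of Fgfr3 was not tested. Names came from GENCODE M21, and 32919 of 37991 identifiers were named.

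The test was that of edgeR 4.0.16 in R 4.3.3, with TMM, filterByExpr (minimum count 10, 10960 genes kept), robust quasi-likelihood test, two-sided, with the mouse as a block, since the labels give both samples of a mouse its number. Deviations from tissue means correlated within mice at 0.0719, 0.127 and 0.159 and between mice at -0.1199 to -0.00294. Libraries of 1 tissue differed by more than counting error, with a chi-square over its degrees of freedom of 19.6 to 68.6. The standard error is the size of the log2 difference divided by the root of the test's F. The procedure was tested on simulated data.

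Members and lists were chosen with earlier results of these data known. Genes named were the members, the called genes of each list or else the 3 of smallest p, the 5 genes most correlated with Fgfr2 among named genes with a mean log2 CPM of at least 3, and set markers. Other list genes (Krt18, Krt19, Synpo2, Tie1, Lyz2, Cd14, Krt5, Sox10, Klb, Fgf10, Fgf22, Fgf20, Fgf11, Fgf13, Fgf14, Sdc1, Esrp1, Esrp2 and the hormone-like ligands) were named after their values were seen. So were the markers Csf1r, Itgam, Itgax, Cd68, Cdx1, Cdx2, Cdhr5, Krt13, Krt14, Krt15, Dsg3, Trp63, Ivl, Col1a1, Col3a1, Dpt, Lum and Thy1. DESeq2 1.42.0, limma-voom (limma 3.58.1) and other settings were alternatives. The alternative exon sequences of Fgfr2 are not reported here. Figures were drawn with Python 3.11.15.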

Additional observations from a re-analysis of the deposited data

How the results depend on the processing

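Over all tested genes, 303 were called, 189 higher and 114 lower in polyps. Without the replicate block for the mouse the counts were 87, 51 and 36, with no filter on low counts 753, 442 and 311, and with DESeq2 541, 326 and 215. A mean of at least 5 CPM gave 178 lower. With each mouse left out in turn they ran from 83 to 281, 45 to 153 and 21 to 128, with 83 called without mouse 1119 and 100 without mouse 1199.

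In the 10 lists together, which hold other receptor tyrosine kinases and leave out the 7 members, 5 genes were called higher in polyps, 3 of them other kinases (Egfr, Pdgfra and Ret) and the rest Hs3st1 and Egr1. The count was 3 without the replicate block, with upper-quartile normalization or without robust spread estimates, 11 with no filter, and 0 to 5 with a mouse left out (0 without mouse 1119, 1 without mouse 1199). No gene of these lists was called lower by edgeR, nor in any of the 12 alternatives, DESeq2 and limma-voom included.

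The Fgfr2 log2 difference stayed between -2.08 and -1.82 in 12 alternatives and that of Fgfbp1 between -1.83 and -1.35. Those of Fgfr1 (-0.96 to 1.17) and Fgfr3 (-2.12 to 1.16) changed sign between alternatives, and that of Fgfrl1 ran from -3.37 to -0.36; their counts of 0 to 100 per library limit them. Fgfr3 did not pass the filter without mouse 1119. Of the smooth muscle markers, DESeq2 called 6 and limma-voom 3 lower, against 2 by edgeR (1 to 4 with a mouse left out, 1 without the block, 6 with no filter, 3 with a mean of at least 5 CPM). Of the fibroblast markers 4 were called higher by edgeR, 3 to 6 with a mouse left out, 2 without the block and 7 with no filter or with a mean of at least 5 CPM. Upper-quartile normalization or spread without robust estimation left 1 epithelial marker called, and RLE normalization 2, against 3.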

Other observations

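The intracellular FGF homologous factors, relatives of the FGFs that bind sodium channels and are not secreted, were also counted. Fgf12 had 2.90, 2.47 and 7.68 CPM in the polyps of mice 1119, 1192 and 1199, against 7.77, 7.05 and 5.86 CPM in surrounding tissue, and did not pass (log2 difference -0.87 ± 0.49, adjusted p = 0.490 in edgeR). Fgf11 had 4, 0 and 7 counts in those polyps, against 25, 26 and 2 counts in surrounding tissue, and was too low to be tested. Fgf13 and Fgf14 had at most 3 counts in any library.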
